A study of Mus musculus with 8 samples.

Results

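The fibrillar collagens of the mouse were examined in ducts of E18.5 embryos, as 10 genes (Col1a1, Col1a2, Col2a1, Col3a1, Col5a1, Col5a2, Col5a3, Col11a1, Col11a2 and Col27a1) out of 46517 in the deposited count table, taken by symbol and Ensembl identifier. RNA sequencing of total RNA covered 8 libraries. The 4 libraries of the conditional knockout (cKO) are numbered 1, 2, 4 and 5, and their genotype is Ptk7 Xst87/flox with T-Cre and mT/mG, where Xst87 is a disrupted Ptk7 allele. The 4 control libraries are numbered 1, 3, 4 and 6, and their genotype is Ptk7 +/flox with T-Cre and mT/mG. Both groups thus share T-Cre, a Cre under the promoter of the mesodermal gene T, and the membrane reporter mT/mG, and the controls also carry 1 floxed allele. The Ptk7 product is a pseudokinase of the cell surface that takes part in planar cell polarity. The labels call the tissue Wolffian ducts and the protocol calls it epididymal ducts, which form from the Wolffian duct. Whether each library is an embryo or litter of its own is not stated, so the p-values cover only the spread among these libraries, which may be technical.

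Fibrillar collagens are the rope-like proteins that give connective tissue its tensile strength. Each chain is made as a procollagen whose long central stretch repeats glycine and any 2 further residues (Gly-X-Y), so that 3 chains can wind into a triple helix, and the ends are clipped off outside the cell before helices pack into fibrils. Type I, built from the Col1a1 and Col1a2 chains, and type III, built from Col3a1 alone, are the bulk collagens of loose connective tissue. Type V (Col5a1, Col5a2 and Col5a3) and type XI (Col11a1, Col11a2 and, in cartilage, the Col2a1 product) co-assemble into fibrils of the bulk types and limit their diameter. Col2a1 forms the main collagen of cartilage, and Col27a1 encodes a shorter, more distant fibrillar chain. In the duct these genes belong mainly to the mesenchyme around the epithelium.

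The coding sequences show the repeat that defines the family. In the transcript with the longest coding sequence of each gene (GENCODE M21, GRCm38), glycine codons (GGN) made up between 21.3% of codons in Col27a1 and 28.3% in Col3a1. The longest unbroken run of GGN followed by any 2 codons held 337 to 344 repeats in 9 genes, and 217 in Col27a1. Among 21756 coding genes the median longest run was 2 repeats, and 15 genes (0.0689%) had a run of at least 100. These 15 were the 10 members, the related Col24a1 with 216 repeats, and Col9a1, Col9a2, Col9a3 and Col22a1 with 113 each. The first 60 coding bases of the run are shown for 6 chains, because these stretches show both what the chains share and how their codons differ. They are written 5′ to 3′ on the coding strand with the glycine codon that opens each repeat in capitals, and each crosses at least 1 exon boundary, so the genomic interval is longer than the sequence.
Col1a1, chr11:94939451-94939909, plus strand, exons 6 to 8: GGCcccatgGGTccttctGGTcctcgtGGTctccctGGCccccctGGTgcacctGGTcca
Col1a2, chr6:4512406-4515486, plus strand, exons 6 to 8: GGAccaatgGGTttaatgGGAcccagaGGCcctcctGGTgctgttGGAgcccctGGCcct
Col3a1, chr1:45323762-45325383, plus strand, exons 5 to 6: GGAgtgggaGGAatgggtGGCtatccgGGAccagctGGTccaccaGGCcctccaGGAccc
Col5a1, chr2:27964080-27965265, plus strand, exons 14 to 15: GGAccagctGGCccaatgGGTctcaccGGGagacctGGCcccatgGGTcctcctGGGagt
Col11a1, chr3:114105402-114108295, plus strand, exons 14 to 15: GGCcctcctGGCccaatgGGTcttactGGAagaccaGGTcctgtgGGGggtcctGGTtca
Col27a1, chr4:63244040-63245119, plus strand, exons 6 to 7: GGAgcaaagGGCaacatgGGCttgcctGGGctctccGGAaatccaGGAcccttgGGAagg

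The genes are scattered over the genome with 1 exception. Col3a1 (chromosome 1, 45311538 to 45349706, plus strand) and Col5a2 (chromosome 1, 45374321 to 45503282, minus strand) lie tail to tail with 24614 bases between them. Col1a1 lies at chromosome 11, 94936224 to 94953042, and Col1a2 at chromosome 6, 4504814 to 4541544, both on the plus strand. Col5a1 (chromosome 2, 27886425 to 28039514, plus strand) overlaps the antisense gene 2810430I11Rik, and the strand setting of the counting is not given, so reads of this pair cannot be told apart where the exons overlap.

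Promoter sequences from RefSeq (GRCm38.p6) were found for 7 of the 10 genes. Over the 250 bases before the start site, on both strands, the GC box GGGCGG, a site of the factor Sp1, occurred in 6 of 7 and in 32.7% of all 32851 promoters of the same length. The box CCAAT, bound by NF-Y, occurred in 3 of 7 and in 33.9% of all promoters, and TATAAA in 2 of 7 and in 12.4%. The last 120 bases before the start are shown for Col3a1, which has no GC box, and for Col5a1 and Col11a1, which each have 2 in the 250 bases, all with a start that equals the gene's start in the count table, with matches of these motifs in capitals (ATTGG is CCAAT on the other strand). A match describes letters only.
Col3a1, chr1:45311418-45311537, plus strand: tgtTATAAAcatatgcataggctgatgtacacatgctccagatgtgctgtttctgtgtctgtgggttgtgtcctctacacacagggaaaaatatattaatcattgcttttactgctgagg
Col5a1, chr2:27886305-27886424, plus strand: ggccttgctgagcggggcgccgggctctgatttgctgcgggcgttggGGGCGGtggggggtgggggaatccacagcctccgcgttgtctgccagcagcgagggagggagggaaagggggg
Col11a1, chr3:114030420-114030539, plus strand: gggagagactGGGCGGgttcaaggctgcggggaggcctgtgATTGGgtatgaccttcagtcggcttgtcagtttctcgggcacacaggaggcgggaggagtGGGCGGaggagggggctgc

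A pair of features of the libraries touch the results. Ptk7 stood at 7.33, 7.59, 12.5 and 194 CPM (counts scaled to the library's size with edgeR's TMM factors) in the libraries labelled cKO 1, 2, 4 and 5, against 189, 112, 313 and 169 CPM in controls 1, 3, 4 and 6, so the library labelled cKO 5 goes against its label, and fold changes are given with it and, where stated, without it. Control 3 departed from the other libraries with the GC content of the coding sequence: its median deviation from each gene's mean over the libraries was 0.14 on the log2 scale in the lowest of 5 equal bins of genes by GC and -0.30 in the highest bin, where the other 7 libraries stood between 0.019 and 0.090. Total counts ranged from 24807970 to 29590547, so sampling of reads limits the precision of Col2a1 and Col11a2 most. Duct markers were present (Epcam at 215 to 298 CPM in libraries labelled cKO and 247 to 287 CPM in controls, Pax2 at 11.9 to 17.3 and 15.4 to 25.8), and so was Pdgfra, a mesenchyme marker (617 to 689 and 685 to 884). In such mixed tissue, fewer cells of a type and less RNA per cell cannot be told apart.

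Types I and III were among the most abundant messages of the duct, whatever the label. By CPM, Col3a1, Col1a2 and Col1a1 ranked 3, 4 and 7 among 16469 tested genes, and per length, by RPKM, they ranked 106, 157 and 90. The 10 fibrillar genes together took 1.57%, 1.80%, 1.56% and 2.14% of all counts in the libraries labelled cKO 1, 2, 4 and 5, against 1.90%, 1.38%, 1.73% and 1.52% in controls 1, 3, 4 and 6. The means were 1.77% ± 0.27 for cKO and 1.63% ± 0.23 for control (SD, n = 4 each), and the ranges overlapped. Without the library labelled cKO 5 the cKO mean was 1.64% ± 0.13 (SD, n = 3). The highest share was in the library labelled cKO 5 and the lowest in control 3.

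Per length, the levels fell into 4 tiers that spanned more than 4 orders of magnitude. In RPKM (CPM per 1000 bases of the summed exon length in the file), means over the 8 libraries were 712 for Col1a1, 573 for Col3a1 and 405 for Col1a2. The ranges over libraries of neighbours in this order overlapped (621 to 892 for Col1a1, 419 to 734 for Col3a1 and 332 to 510 for Col1a2). The type V chains Col5a1 and Col5a2 followed at 106 and 67.4 RPKM, with overlapping ranges of 79.4 to 144 and 47.9 to 93.2. Col11a1 averaged 6.63 RPKM, Col27a1 2.58 and Col5a3 2.54, the last 2 with overlapping ranges of 1.51 to 3.23 and 1.16 to 3.78. Col2a1 averaged 0.137 and Col11a2 0.027 RPKM. The order of the top 3 depends on the length used. The summed exon length of Col1a2 is 12426 bases against 5348 for its longest coding transcript, whereas for Col1a1 the 2 lengths are 6563 and 5930. Divided by the length of the coding transcript, Col3a1 came first (1012), then Col1a2 (941) and Col1a1 (788), and the other 7 members kept their places.

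**Figure D1:**
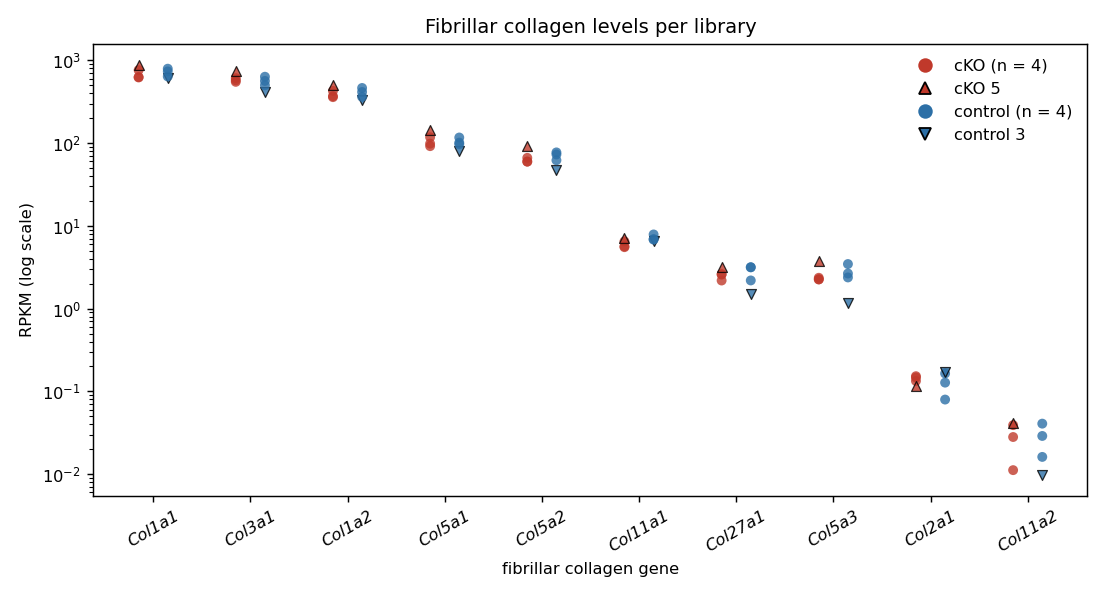
Level of each fibrillar collagen gene in each library, in RPKM on a log axis, ordered by mean; red points are libraries labelled cKO (left) and blue points controls (right), with triangles for cKO 5 (pointing up) and control 3 (pointing down). In every gene the 2 groups overlap, and levels run from 712 RPKM on average for Col1a1 to 0.027 for Col11a2.

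The comparison of cKO with control asks how loss of Ptk7 bears on gene expression in the duct, here on its fibrillar collagens. No fibrillar collagen was called as different between the labels. Of 10 members 9 passed the filter on low counts and were tested, and 0 were called by edgeR's quasi-likelihood test at an adjusted p of 0.05, where 0% of all 16469 tested genes were called. Ptk7 itself was not called over the 8 libraries (log2 fold change -1.82, edgeR adjusted p = 0.655). The lack of a call there does not show that levels were equal. DESeq2 called 0 of the members too, and 1.13% of all genes with an adjusted p. At an unadjusted p under 0.05 there were 0 members and 8.37% of all tested genes, and no member had separate ranges in the 2 groups, against 5.76% of all tested genes (2.65% higher and 3.11% lower in cKO). The log2 fold change of cKO over control was above 0 in 8 of the 9 (51.4% of all tested genes), with a median of 0.083 against 0.0055 for all genes. Without the library labelled cKO 5 it was above 0 in 3 of 9 (51.7% of all genes), and the median was -0.028. In that comparison edgeR called 0 members and 1 gene in all (0.00599%), Ptk7, at an edgeR adjusted p of 0.00805. DESeq2 called 0 members there (1.1% of all genes), and 1 member, Col11a1, had an unadjusted edgeR p under 0.05 (8.74% of all genes).

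For type I, Col1a1 had 4127, 5009, 4081 and 5851 CPM in the libraries labelled cKO 1, 2, 4 and 5, against 5207, 4076, 4824 and 4195 CPM in controls 1, 3, 4 and 6. The partner chain Col1a2 had 4591, 5315, 4468 and 6340.1 CPM in the libraries labelled cKO, against 5768, 4128, 5155 and 4498 CPM in controls, in the same order of libraries. For both chains the library labelled cKO 5 was the highest of all, control 1 stood above the other 3 libraries labelled cKO, and the groups overlapped. The log2 fold change was 0.059 (SE 0.13, 95% interval -0.23 to 0.34, edgeR adjusted p = 0.914) for Col1a1 and 0.083 (SE 0.13, -0.21 to 0.38, edgeR adjusted p = 0.876) for Col1a2. Without the library labelled cKO 5 both turned, to -0.054 and -0.028.

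For type III, Col3a1 had 5641, 5986, 5402 and 7209 CPM in the libraries labelled cKO, against 6229, 4108, 5544 and 4907 CPM in controls. Its group means were 6059 ± 803 in cKO and 5197 ± 905 in control (SD, n = 4 each). The cKO range began above 2 of the 4 controls but did not clear controls 1 and 4. With a log2 fold change of 0.22 (SE 0.13, 95% interval -0.074 to 0.52, edgeR adjusted p = 0.694), Col3a1 had the highest fold change of the 9 tested members, and it did not pass. Without the library labelled cKO 5 it was 0.13 (SE 0.13), and fitted with a GC term for each library 0.18.

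For type V, Col5a1, the chain present in all common forms of type V, had 781, 1000.3, 838 and 1224 CPM in the libraries labelled cKO, against 993, 674, 861 and 823 CPM in controls. Col5a2 had 575, 637, 573 and 893 CPM in the libraries labelled cKO, against 741, 459, 699.9 and 596 CPM in controls. In Col5a2 the 3 libraries labelled cKO other than cKO 5 all stood within the control range. The minor chain Col5a3 had 15.4, 15.4, 16.1 and 25.8 CPM in the libraries labelled cKO, against 23.6, 7.89, 18.1 and 16.2 CPM in controls. Here the library labelled cKO 5 stood far above the other 3 of its group and control 3 far below the other controls. Log2 fold changes were 0.20 (SE 0.15) for Col5a1, 0.10 (SE 0.17) for Col5a2 and 0.14 (SE 0.29) for Col5a3, with edgeR adjusted p from 0.751 to 0.905. Without the library labelled cKO 5 they were 0.060, -0.068 and -0.071.

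Type XI was represented by Col11a1, the 1 member with a negative fold change. It had 70.4, 82.6, 72.0 and 91.6 CPM in the libraries labelled cKO, against 100.3, 83.5, 88.0 and 86.8 CPM in controls. The libraries labelled cKO 1, 2 and 4 all lay below the lowest control, and the library labelled cKO 5 lay among the controls. The log2 fold change was -0.18 (SE 0.096, 95% interval -0.39 to 0.032, edgeR adjusted p = 0.666), and -0.26 (SE 0.089, edgeR adjusted p = 0.447) without the library labelled cKO 5. With a GC term the value was -0.17. Its partner Col11a2 was near the limit of detection, with 5, 7, 2 and 7 counts in the libraries labelled cKO and 5, 2, 8 and 3 counts in controls, and was not tested.

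Col2a1, the cartilage collagen, was also rare, with 23, 21, 24 and 17 counts in the libraries labelled cKO and 25, 31, 22 and 13 counts in controls, or 0.824 ± 0.098 CPM and 0.816 ± 0.25 CPM (SD, n = 4 each). Among the cartilage markers, Acan stood at 0.067 to 0.395 CPM and Matn1 at 0 in all 8 libraries, while Col9a2, a chain of the fibril-associated type IX collagen, stood at 150 to 185 CPM in the libraries labelled cKO and 33.8 to 209 CPM in controls, its low value being control 3. Of the 10 cartilage markers 5 averaged under 1 CPM. Col27a1 had 28.5, 33.6, 34.0 and 42.0 CPM in the libraries labelled cKO, against 41.1, 19.7, 41.2 and 28.5 CPM in controls, with overlap throughout (log2 fold change 0.082, SE 0.21, edgeR adjusted p = 0.932). Col24a1, a fibrillar chain outside the set, averaged 2.12 ± 0.66 CPM in cKO and 1.97 ± 0.62 CPM in control (SD, n = 4 each, log2 fold change 0.11, SE 0.29).

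**Figure D2:**
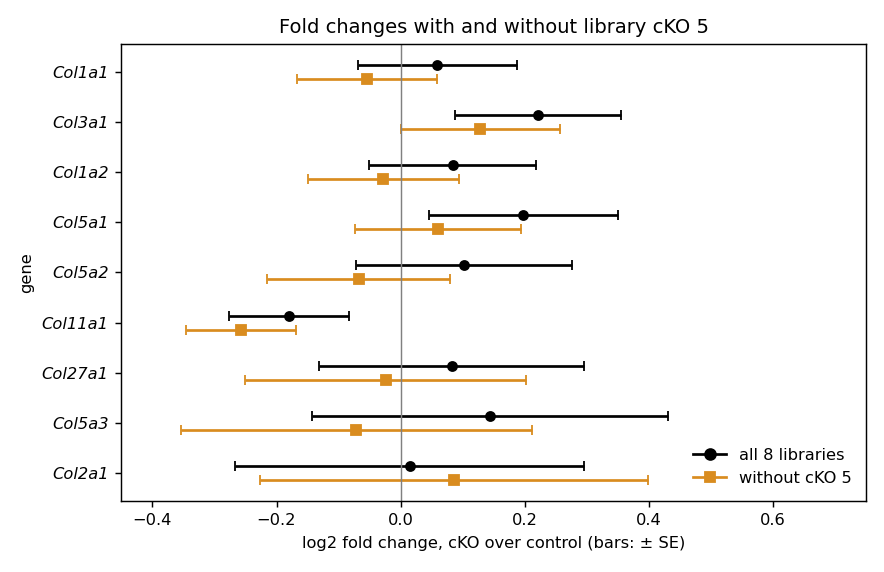
Log2 fold change of cKO over control for the 9 tested members (rows, ordered by RPKM) from edgeR, with SE bars; black circles use all 8 libraries and orange squares leave out the library labelled cKO 5. All 9 squares but that of Col2a1 lie left of their circles, and Col11a1 is below 0 in both fits.

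Ratios between chains cancel what both chains share in a library, though not a deviation that depends on GC, and 4 were tested, with p-values adjusted over the 4. The balance of the type I chains was tight. Col1a1 over Col1a2 in CPM was 0.899, 0.943, 0.913 and 0.923 in the libraries labelled cKO 1, 2, 4 and 5, against 0.903, 0.987, 0.936 and 0.933 in controls 1, 3, 4 and 6, a spread of 3.02% (coefficient of variation over the 8 libraries). The mean log2 difference was -0.031 (exact two-sided permutation p = 0.40, adjusted p = 0.40). Col3a1 over Col1a1 was 1.37, 1.19, 1.32 and 1.23 in the libraries labelled cKO, against 1.20, 1.01, 1.15 and 1.17 in controls. The library labelled cKO 2 (1.195) lay just under control 1 (1.196), and otherwise the cKO values were the higher ones. The log2 difference of 0.18 gave an exact two-sided permutation p of 0.0571 and an adjusted p of 0.171, where the smallest p that 4 against 4 allows is 0.0286. Without the library labelled cKO 5 the difference was 0.20 (exact permutation p = 0.0571, adjusted p = 0.229). With 1 library left out it ran from 0.12, without control 3, to 0.21. After a GC term was taken out of each library it was 0.26, the groups did not overlap, and the adjusted p was 0.114 (exact permutation p = 0.0286, the smallest possible). Control 3 then stood at 0.86, down from 1.01, and the other controls at 1.17 to 1.22.

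For type V, Col5a1 over Col5a2 was 1.36, 1.57, 1.46 and 1.37 in the libraries labelled cKO, against 1.34, 1.47, 1.23 and 1.38 in controls, with overlapping groups (log2 difference 0.089, exact permutation p = 0.286, adjusted p = 0.381, and 0.0079 after the GC term). Col5a1 over Col1a1, a type V chain over a type I chain in CPM and so not scaled by length, was 0.189, 0.200, 0.205 and 0.209 in the libraries labelled cKO, against 0.191, 0.165, 0.179 and 0.196 in controls (log2 difference 0.14, exact permutation p = 0.0857, adjusted p = 0.171, and 0.092 without control 3). Another ratio was picked after its values were seen and was given no test. It sets the only member with a negative fold change over one with a higher fold change than most, a choice that favours separate groups. How many other pairs of members separate was not counted. Col11a1 over Col5a1, 2 chains that can take each other's place in heterotypic fibrils, was 0.090, 0.083, 0.086 and 0.075 in the libraries labelled cKO, against 0.101, 0.124, 0.102 and 0.106 in controls. All 4 libraries labelled cKO lay below all controls, with the library labelled cKO 5 lowest and control 3 highest. After the GC term the values were 0.093, 0.088, 0.090 and 0.077 in the libraries labelled cKO, against 0.104, 0.101, 0.104 and 0.107 in controls, so that control 3 was then the lowest control and the groups still did not overlap.

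**Figure D3:**
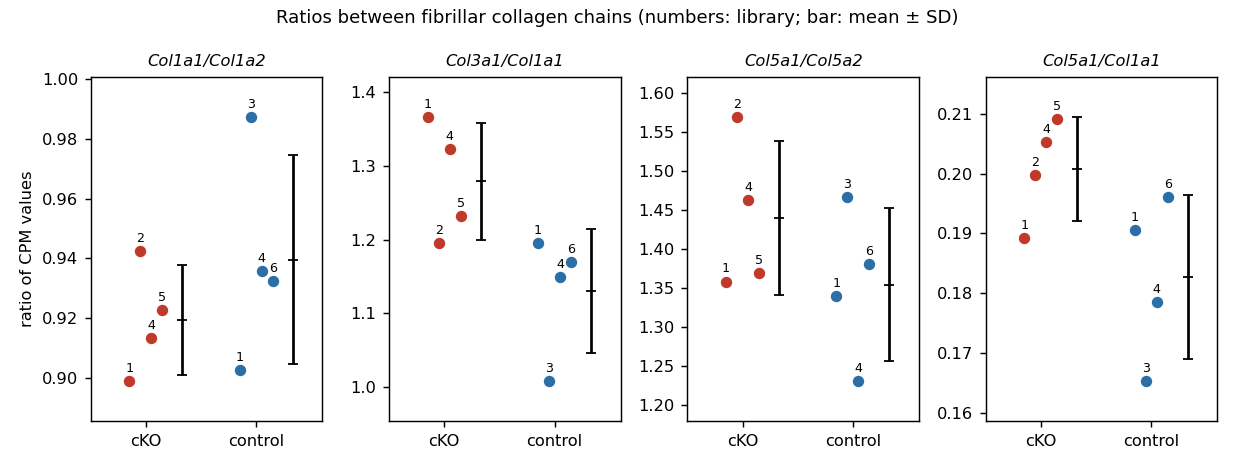
Ratio of CPM values between chains in each library (y axes, each with its own range that does not start at 0), with the library number above each point; red is cKO (left), blue is control (right), and bars give mean ± SD of 4 libraries. Groups overlap in all 4 panels, by 1.195 against 1.196 in Col3a1/Col1a1.

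The members varied together from library to library more than between the labels. The library labelled cKO 5 held the highest value of 7 of the 9 tested members, where 13.0% of all tested genes had their highest value, and control 3 the lowest value of 7 of the 9, where 26.6% of all tested genes had their lowest. Among the members tested, Col11a1 and Col2a1 were the exceptions to both. Control 1 stood above the member's mean in 9 of 9. The median deviation over the 9 members was 0.36 on the log2 scale in the library labelled cKO 5, 0.22 in control 1 and -0.39 in control 3. The root mean square difference between the profiles of Col1a1 and Col1a2 over the 8 libraries was 0.040 on the log2 scale, and among Col1a2, Col3a1, Col5a1 and Col5a2 the differences ran from 0.085 to 0.11. Col5a3 spread widest apart from the rare Col11a2, with a 3.27-fold range, and Col11a1 narrowest, with a 1.42-fold range. These are descriptions over libraries that share the genes' common scaling.

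**Figure D4:**
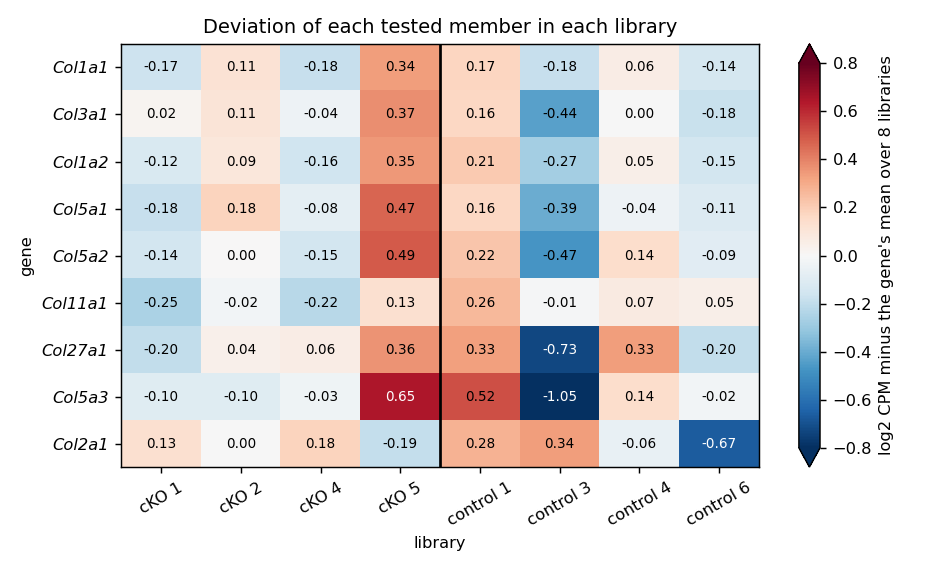
Log2 CPM of each tested member minus its mean over the 8 libraries, by library (columns; cKO left of the black line, control right) with red for above and blue for below the mean. The column of the library labelled cKO 5 is red for all members but Col2a1, and the column of control 3 is blue for all but Col2a1, with Col11a1 at -0.0064.

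Of other measures, the mitochondrial share set both the library labelled cKO 5 and control 3 apart. The sum of bone markers stood out only in the library labelled cKO 5. The part of the mitochondrial share and of the markers in the collagen values was not tested. The mitochondrial share of counts was 1.82% in the library labelled cKO 5 and 3.47% in control 3, and 2.37% to 2.64% elsewhere. The summed level of 8 mesenchyme markers was 3499 CPM in the library labelled cKO 5 and 3421 CPM in control 3. The sums ran from 3246 to 3499 CPM for cKO and from 3106 to 3421 CPM for control. Single markers differed in control 3, where Pdgfra was the highest of the 8 libraries (884 CPM) and Dpt the lowest (77.4 CPM). Bone markers summed to 25.5 CPM in the library labelled cKO 5 and 12.7 to 16.6 CPM in the other 7. Of the defining bone markers, Bglap was at 0 in all 8. Ibsp stood at 5.85 CPM in the library labelled cKO 5 and 0.305 to 2.53 CPM in the other 7, and Sp7 at 3.27 and 1.15 to 1.82 CPM. Mesothelium markers summed to 538 to 724 CPM in the libraries labelled cKO and 440.2 to 527 CPM in controls, with 5 of 6 above 0 in fold change and the library labelled cKO 5 highest. Coding GC of the members ran from 53.3% in Col11a1 to 64.2% in Col11a2, and 7 of the 10 fell in the bin with the highest GC. After a smooth GC term was taken out of each library, control 3 held the lowest value of 4 of the 9 tested members, with a median of -0.10, and Col1a1 there was 0.17 above its mean. The library labelled cKO 5 still held the highest value of 7 of 9, with a median of 0.30. With the GC term in the fit the log2 fold changes ran from -0.17 to 0.18, that of Col1a1 was -0.070, and 0 members were called by edgeR (0 also without the library labelled cKO 5).

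**Figure D5:**
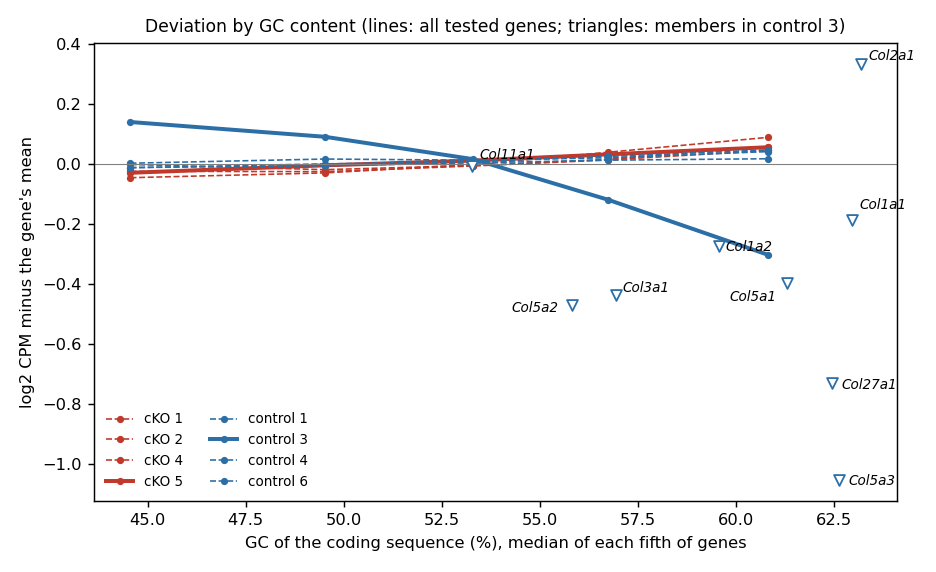
Lines give the median over tested genes of log2 CPM minus the gene's mean, by coding GC in 5 bins (x axis, percent), for each library (red cKO, blue control; thick lines are cKO 5 and control 3); open triangles are the 9 tested members in control 3. The line of control 3 runs from 0.14 to -0.30, and Col5a3 and Col27a1 lie far below it, Col2a1 above it.

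The genes that make, clip, bind and break down fibrillar collagen gave no edgeR call either. Over 6 lists, 94 of 101 genes were tested, 0 passed edgeR's adjusted p of 0.05 (0% of all genes), and DESeq2 called 2, Adgrg1 and Cebpb (1.13% of all genes). Of 24 chaperones and modifying enzymes of the endoplasmic reticulum, 17 had a fold change above 0, with a median log2 fold change of 0.069. At an unadjusted p under 0.05 there were 2 higher and 1 lower, against 3.5% and 4.87% of all tested genes. P3h4, part of a complex that hydroxylates procollagen lysines, had 116, 129, 106 and 119 CPM in the libraries labelled cKO, against 105, 66.5, 102 and 99.4 CPM in controls (log2 fold change 0.33, SE 0.13, edgeR adjusted p = 0.53). Fkbp10, a procollagen chaperone, averaged 186 ± 9.82 CPM in cKO and 156 ± 22.7 CPM in control, and Mia2, which helps procollagen leave the endoplasmic reticulum, 49.6 ± 0.81 and 56.1 ± 4.38 CPM (SD, n = 4 each, both edgeR adjusted p = 0.532). In P3h4 and Fkbp10 the groups did not overlap, and control 3 was the lowest library. They were 2 of the 24 with separate ranges and higher in cKO, against 2.65% of all tested genes. Genes named from each list were picked by their small p, which favours separate ranges. Without control 3 the log2 fold change was 0.20 for P3h4 and 0.16 for Fkbp10, against 0.33 and 0.26 with it.

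Among 13 tested procollagen peptidases and cross-linking enzymes, 8 had a fold change above 0 (51.4% of all tested genes), and the median was 0.11. At an unadjusted p under 0.05, 0 were higher and 1 lower (3.5% and 4.87% of all tested genes). That 1 was Loxl4, a lysyl oxidase relative, with 1.38, 1.49, 1.53 and 2.66 CPM in the libraries labelled cKO, against 2.85, 2.03, 2.85 and 3.09 CPM in controls. Its log2 fold change was -0.62 (SE 0.25, edgeR adjusted p = 0.529), and -0.88 (SE 0.22, edgeR adjusted p = 0.271) without the library labelled cKO 5. The relatives Loxl3 and Loxl1 had log2 fold changes of 0.26 (SE 0.13) and 0.28 (SE 0.14), and of 0.14 and 0.15 without control 3. With the GC term Loxl1 was at 0.14. Of 19 tested fibril-associated collagens and proteoglycans, 13 were above 0 (51.4% of all tested genes), and the median was 0.068. At an unadjusted p under 0.05, 1 was higher and 0 lower (3.5% and 4.87% of all tested genes). Dpt (dermatopontin, which binds fibrils) averaged 132 ± 32.5 CPM in cKO and 95.8 ± 29.1 CPM in control, Lum (lumican, which regulates fibril packing) 548 ± 80.3 and 472 ± 49.9 CPM, and Thbs2 (thrombospondin 2) 267 ± 47.3 and 325 ± 40.8 CPM (SD, n = 4 each), with edgeR adjusted p from 0.592 to 0.677. Single libraries moved Dpt from a log2 fold change of 0.47 to 0.29 (without the library labelled cKO 1) or 0.70 (without control 6), and Thbs2 from -0.28 to -0.18 (without the library labelled cKO 4). In control 3, where 26.6% of all tested genes were lowest, 10 of these 19, 8 of the 13 peptidases and cross-linkers and 10 of the 24 chaperones and enzymes were lowest, against 2 of 10 receptors, 4 of 11 breakdown genes and 5 of 17 regulators. In the library labelled cKO 5, where 13.0% of all tested genes were highest, 7 of each of the first 3 lists, 2 receptors, 6 breakdown genes and 2 regulators were highest.

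Of 10 tested collagen receptors, DESeq2 called 1, Adgrg1, and edgeR 0. A fold change above 0 was seen in 3 of the 10 (51.4% of all tested genes), the median was -0.17, and 0 were higher and 2 lower at an unadjusted p under 0.05 (3.5% and 4.87% of all tested genes). Adgrg1, a G protein-coupled receptor that binds type III collagen, had 79.5, 86.1, 62.8 and 83.4 CPM in the libraries labelled cKO, against 125, 146, 114 and 100.1 CPM in controls. All 4 cKO values, that of the library labelled cKO 5 included, lay below all controls (log2 fold change -0.63, SE 0.13, edgeR adjusted p = 0.163, DESeq2 adjusted p = 0.00204). Control 3 was the highest library for Adgrg1, whose log2 fold change was -0.53 without control 3 and -0.70 with the GC term. Ranges were separate and lower in cKO in 2 of the 10 receptors, Adgrg1 and Itga2, and in 3.11% of all tested genes. Itga1, the integrin chain that binds fibrillar and basement membrane collagens, had 13.9, 10.8, 17.2 and 22.4 CPM in the libraries labelled cKO, against 25.9, 20.1, 24.2 and 20.5 CPM in controls. The library labelled cKO 5 was among the controls, and without it the log2 fold change was -0.70 (SE 0.16, edgeR adjusted p = 0.248, DESeq2 adjusted p = 0.0101) instead of -0.50 (SE 0.19). Itga2, another collagen-binding integrin chain, averaged 3.45 ± 0.69 CPM in cKO and 4.35 ± 0.19 CPM in control (SD, n = 4 each, log2 fold change -0.34, or -0.22 without the library labelled cKO 1, edgeR adjusted p = 0.641). Markers of the duct epithelium summed to 826 to 1147 CPM in the libraries labelled cKO and 955 to 1094 CPM in controls, with 8 of 10 below 0 in fold change, and those of smooth muscle to 2489 to 3173 CPM in cKO and 3208 to 3820.0 CPM in controls, with 6 of 7 below 0. Their part in the receptor values was not tested.

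Of 11 tested collagenases, related proteases and inhibitors, 9 had a fold change above 0 (51.4% of all tested genes), and the median was 0.14. At an unadjusted p under 0.05, 1 was higher and 1 lower (3.5% and 4.87% of all tested genes). Both were tissue inhibitors of metalloproteinases. Timp2 had 441, 441, 484 and 487 CPM in the libraries labelled cKO, against 422, 398, 393 and 404 CPM in controls, and Timp3 had 275, 271, 286 and 288 CPM in the libraries labelled cKO, against 343, 382, 340.4 and 293 CPM in controls. Neither pair of groups overlapped (log2 fold change 0.20, SE 0.070, edgeR adjusted p = 0.464 for Timp2, and -0.28, SE 0.086, edgeR adjusted p = 0.374 for Timp3). Of the 11, these were the 1 higher and the 1 lower with separate ranges, against 2.65% and 3.11% of all tested genes. Timp2 was at 0.19 without control 3 and 0.15 with the GC term. Timp3, highest in control 3, was at -0.22 without control 3 and -0.30 with the GC term. Fap, a surface protease of activated fibroblasts, averaged 17.2 ± 1.88 CPM in cKO and 14.3 ± 2.21 CPM in control (SD, n = 4 each, log2 fold change 0.27, or 0.18 without control 3). Among 17 regulators of collagen genes the median was 0.023. At an unadjusted p under 0.05, 2 were higher and 0 lower (3.5% and 4.87% of all tested genes). Cebpb, a transcription factor that acts on type I collagen genes in other cells, had 28.2, 31.4, 28.6 and 22.9 CPM in the libraries labelled cKO, against 17.6, 10.8, 18.4 and 14.2 CPM in controls (log2 fold change 0.87, SE 0.16, edgeR adjusted p = 0.161, DESeq2 adjusted p = 0.000316). Control 3 was its lowest library, and its log2 fold change was 0.73 without control 3 and 0.63 with the GC term. Tgfb3, a growth factor ligand that induces collagen, had 140.2, 145, 138 and 171 CPM in the libraries labelled cKO, against 131, 127, 129.9 and 127 CPM in controls (log2 fold change 0.21, SE 0.080, edgeR adjusted p = 0.508), and Tgfb2 stood at 0.18 (SE 0.10). Tgfb3 was at 0.13 without the library labelled cKO 5, and Tgfb2 was at 0.10 without the library labelled cKO 4 and 0.11 without control 4.

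Among the 5 genes whose profiles over the 8 libraries were nearest to that of Col1a1, by root mean square difference of centred log2 CPM among 10108 candidates of at least 10 CPM, were Pcolce (0.049), Ints1 (0.053), Svil (0.059) and Kank1 (0.066). Pcolce encodes the enhancer of the protease that clips the carboxy end of procollagens. The profile of Col1a1 itself has a root mean square of 0.19. Nearest to Col11a1, the member with the smallest p, were Tbrg4 (0.050), Pus7l (0.052), Cluh (0.053), Mylk (0.065) and Axin2 (0.066), with 0.16 for the profile of Col11a1 itself.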

How the data were processed

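Total RNA of 8 libraries was sequenced. Per the labels' protocols, RNA was column-purified, and TruSeq libraries were read on a HiSeq machine. STAR and featureCounts were used on GRCm38, per the submitters' processing notes, which name no version, strand setting or annotation release here. The deposited table holds unnormalized counts by gene and the summed exon length. Symbols matched 46005 of 46517 identifiers. No 2 libraries matched within sampling noise (28 pairs, chi-square over degrees of freedom at least 13.7).

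Tests used edgeR 4.0.16 in R 4.3.3 (filterByExpr, TMM, quasi-likelihood F test on group over 8 libraries, Benjamini-Hochberg over 16469 genes). SE is the fold change over the root of F. CPM uses TMM-scaled sizes, and log2 CPM a prior count of 2. Ratios were compared by exact two-sided permutation. Alternatives were DESeq2 1.42.0, limma 3.58.1 voom, other factors and filters, a replicate block, each library left out and, added after seeing the data, a GC term (loess of deviation on coding GC, known for 86.0% of tested genes), coding transcript lengths and further omissions. Code was tested on simulated data. Members and lists were chosen with earlier results of these data known. Named genes are Ptk7, all members, Col24a1, the 3 smallest p of each list (mean of at least 1 CPM) and the 5 nearest profiles to 2 members, of which 1 is not reported here. Other named genes are defining markers, or were named after their values were seen (Col9a2, 2810430I11Rik). Col21a1 was not used here. Promoters are RefSeq's, coding sequences GENCODE M21's. Figures used matplotlib 3.10.9.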

Additional observations from a re-analysis of the deposited data

Results flagged for a closer look

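In 70 groups of 4 libraries, 7 held a library whose gap to its nearest neighbour took most of the group's range, where chance gives about 1 in 20 for an unselected group. The groups share the same 8 libraries, and their genes include Ptk7 and genes named for a small p. The 7 therefore cannot be read as an excess over that rate. In the cKO group the library labelled cKO 5 stood apart in 3 genes, with Ptk7 at 194 CPM (the others 7.33 to 12.5), Col5a3 at 25.8 CPM (15.4 to 16.1) and Loxl4 at 2.66 CPM (1.38 to 1.53). In the control group control 3 stood apart in 3 genes, with P3h4 at 66.5 CPM (the others 99.4 to 105), Fkbp10 at 122 CPM (163 to 170.0) and Loxl1 at 177 CPM (255 to 268). Control 6 stood apart in Dpt, at 139 CPM (77.4 to 86.3).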

How the results depend on the processing

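No fibrillar collagen was called under any alternative run. No chain ratio passed with 1 library left out, from raw counts or after the GC term. A single ratio could not pass, since the smallest exact permutation p of 0.0286 alone gives an adjusted p of 0.114 over the 4. Ratios of raw counts gave the same differences, because scaling by library and length cancels there. Over all genes, edgeR called 0, but 1 with no filter, 7 with the replicate block, 0 to 2 with 1 library left out (1 without the library labelled cKO 5 and 2 without control 1), 3 without both that library and control 3, and 1 with the GC term without it; DESeq2 called 184, and 177 without it. Of the pathway genes DESeq2 called 2, and 3 without that library. The replicate block used the 4 libraries whose numbers occur in both groups; same-numbered deviations correlated at -0.092 and 0.023 across genes, and the labels do not say that a number marks a shared litter or day.

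For 29 named genes, 489 of 550 alternative values kept sign and side, 51 changed sign and 10 passed (Ptk7, Adgrg1, Itga1, Cebpb). The cause of sign changes was not tested. Under the block Col1a1 was -0.29, Col1a2 -0.27, Col3a1 -0.089, Col5a1 -0.19, Col5a2 -0.33, Col5a3 -0.39, Col27a1 -0.40, Col24a1 -0.16 and Loxl1 -0.012. Under voom Col1a1 was -0.011, Col1a2 -0.0042, Col5a2 -0.052, Col5a3 -0.11, Col27a1 -0.10 and Col24a1 -0.15. With the GC term Col1a1 was -0.070, Col2a1 -0.14 and Col27a1 -0.012, and also without the library labelled cKO 5 Col1a1 was -0.19, Col1a2 -0.11, Col2a1 -0.071, Col5a1 -0.041, Col5a2 -0.088, Col5a3 -0.16 and Col27a1 -0.12. Under DESeq2 without it Col1a1 was -0.052, Col1a2 -0.026, Col5a2 -0.066, Col5a3 -0.072 and Col27a1 -0.024. Without it and control 3 Col1a1 was -0.10, Col1a2 -0.096, Col5a1 -0.026, Col5a2 -0.18, Col5a3 -0.30, Col27a1 -0.20 and Col24a1 -0.047. With 1 library left out the ranges were -0.054 to 0.13 (Col1a1), -0.028 to 0.17 (Col1a2), -0.17 to 0.15 (Col2a1), -0.068 to 0.20 (Col5a2), -0.088 to 0.37 (Col5a3), -0.098 to 0.21 (Col27a1) and -0.11 to 0.25 (Col24a1), against 0.12 to 0.32 for Col3a1, 0.060 to 0.29 for Col5a1 and -0.26 to -0.12 for Col11a1. TPM kept the order of levels. Depth limits Col2a1 and Col11a2 most.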
